A study of Mus musculus with 9 samples.

Results

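The 9 genes described here, Plaur, Mmp3, Mmp12, Timp1, Igfbp3, Igfbp7, Ccl8, Gdf15 and Areg, encode proteases, a protease inhibitor, binding proteins, signalling proteins and a receptor that senescent cells are known to make. They were taken by name from the 54532 genes counted in the mouse sublingual gland, and 8 of the 9 had enough reads to be among the 15348 genes tested. Bulk RNA sequencing was done on wild-type glands that had received no radiation (control), and on wild-type glands 7 and 14 days after 10 Gy, with 3 libraries per group. RNA came from 4 sections of 50 µm per gland. The labels give neither age, sex nor strain and do not say that the 3 libraries of a group came from separate animals, so the tests measure the spread between these libraries.

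Cells that leave the cell cycle for good after DNA damage can remain alive and secrete a mixture of proteases, growth factors and chemokines, called the senescence-associated secretory phenotype. Its proteases and their inhibitors remodel the extracellular matrix, its insulin-like growth factor (IGF) binding proteins hold growth factors, and its chemokines draw in monocytes and macrophages, which themselves make several of the same proteins. In irradiated salivary glands this secretion has been studied as a source of lasting dysfunction.

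Total counts ran from 15962399 to 19441239 per library, so 3 reads, taken as the floor below which no level was read, correspond to 0.154 to 0.188 CPM (counts scaled to library size) without a further factor. Levels are given as CPM adjusted by trimmed mean of M-values (TMM) factors, libraries are numbered as in the labels, and differences are log2 fold changes with their standard error (SE). The markers of salivary secretory cells, the sublingual mucin gene Muc19 among them, summed to 145789 to 199187 CPM in control libraries, 109129 to 114322 CPM at day 7 and 140880 to 146188 CPM at day 14. Cdkn1a, the p21 inhibitor of cyclin-dependent kinases and a mark of the damage response, had 5.31, 6.0 and 5.71 CPM in the control libraries, 13.1, 13.6 and 15.1 CPM at day 7 and 16.4, 12.7 and 18.8 CPM at day 14. It rose by 1.30 (SE 0.18, adjusted p = 4.9e-05) at day 7 and by 1.49 (SE 0.18, adjusted p = 0.000905) at day 14 against control. Control library 3 stood apart: its counts differed from those of control libraries 1 and 2 by a chi-square of 131 and 91.5 per degree of freedom, beside 14.9 between these 2 and 9.63 to 29.96 within the irradiated groups. Adipocyte markers summed to 67.7 CPM in day 14 library 3 and to at most 29.2 CPM in any other library. Cdkn2a, which encodes the p16 arrest protein, was too low to test, with 3 reads over the control libraries, 5 at day 7 and 4 at day 14.

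Promoter sequence is shown for the members whose 250 bases before a RefSeq transcription start held an AP-1 motif (TGANTCA) or a cyclic AMP response element (CRE, TGACGTCA), since AP-1 and CREB-type factors are known to act on protease and growth factor genes. Both motifs equal their own reverse complement, so 1 search covers both strands, and the motifs do not overlap in these windows. The AP-1 motif was in 2217 of 32851 promoter windows (6.75%) and the CRE in 508 (1.55%). Each stretch is the 120 bases up to the base before the start, read 5′ to 3′ on the plus strand of GRCm38.p6 as given by RefSeq, with the motif in capitals. The positions are chr7:24462363-24462482 for Plaur, chr9:7445702-7445821 for Mmp3, chr9:7347254-7347373 for Mmp12 and chr5:91139479-91139598 for Areg.
Plaur: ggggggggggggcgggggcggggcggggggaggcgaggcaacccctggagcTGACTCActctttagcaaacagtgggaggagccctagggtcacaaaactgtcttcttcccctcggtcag
Mmp3: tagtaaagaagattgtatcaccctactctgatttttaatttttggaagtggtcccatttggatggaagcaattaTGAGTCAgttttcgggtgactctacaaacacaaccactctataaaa
Mmp12: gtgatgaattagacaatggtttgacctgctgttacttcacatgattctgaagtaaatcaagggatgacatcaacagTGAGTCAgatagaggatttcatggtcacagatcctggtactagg
Areg: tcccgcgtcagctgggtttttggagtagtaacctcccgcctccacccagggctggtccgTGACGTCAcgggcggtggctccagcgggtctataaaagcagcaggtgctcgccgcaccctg
All 9 members were found in the RefSeq promoter table, with 11 windows, because some genes have more than 1 start. The AP-1 motif began 69 bases before the start in Plaur, 46 in Mmp3 and 44 in Mmp12, where it belongs to the second window listed, and the CRE began 61 bases before the start in Areg. Neither motif was found in the windows of Igfbp3, Igfbp7, Timp1, Ccl8 and Gdf15, which says only that these letters were absent there.

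The 9 factors showed no common direction. At day 7, 1 of the 8 tested members passed an adjusted p of 0.05, Plaur, which was lower, against 30.6% of all tested genes called in either direction and 14.8% called lower. At day 14 against control 1 member was called, Mmp12, which was higher, against 1.76% of all tested genes called and 1.13% called higher. That share depends on single libraries: with 1 control library left out it was 0.0822% (13 genes, without library 1), 0.0947% (15 genes, without library 2) or 12.3% (1937 genes, without library 3), and with 1 day 14 library left out 31 to 71 genes were called. Without control library 3 Mmp12 was again the 1 member called. In the comparison of day 14 with day 7 again 1 was called, Mmp3, which was higher, against 6.59% called, of which 3.72% of the tested genes were higher and 2.87% lower. The median log2 difference over the 8 tested members was -0.01 at day 7, 0.14 at day 14 and 0.21 between day 14 and day 7, beside 0.02, 0.01 and 0.00 over all tested genes. In each comparison 1 of 8 is 12.5% of the tested members, beside matched shares of 30.6%, 1.76% and 6.59% over all tested genes. A count of 1 among 8 is too small to set against these shares. The counts of members called are therefore read as no result about the set.

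**Figure D1:**
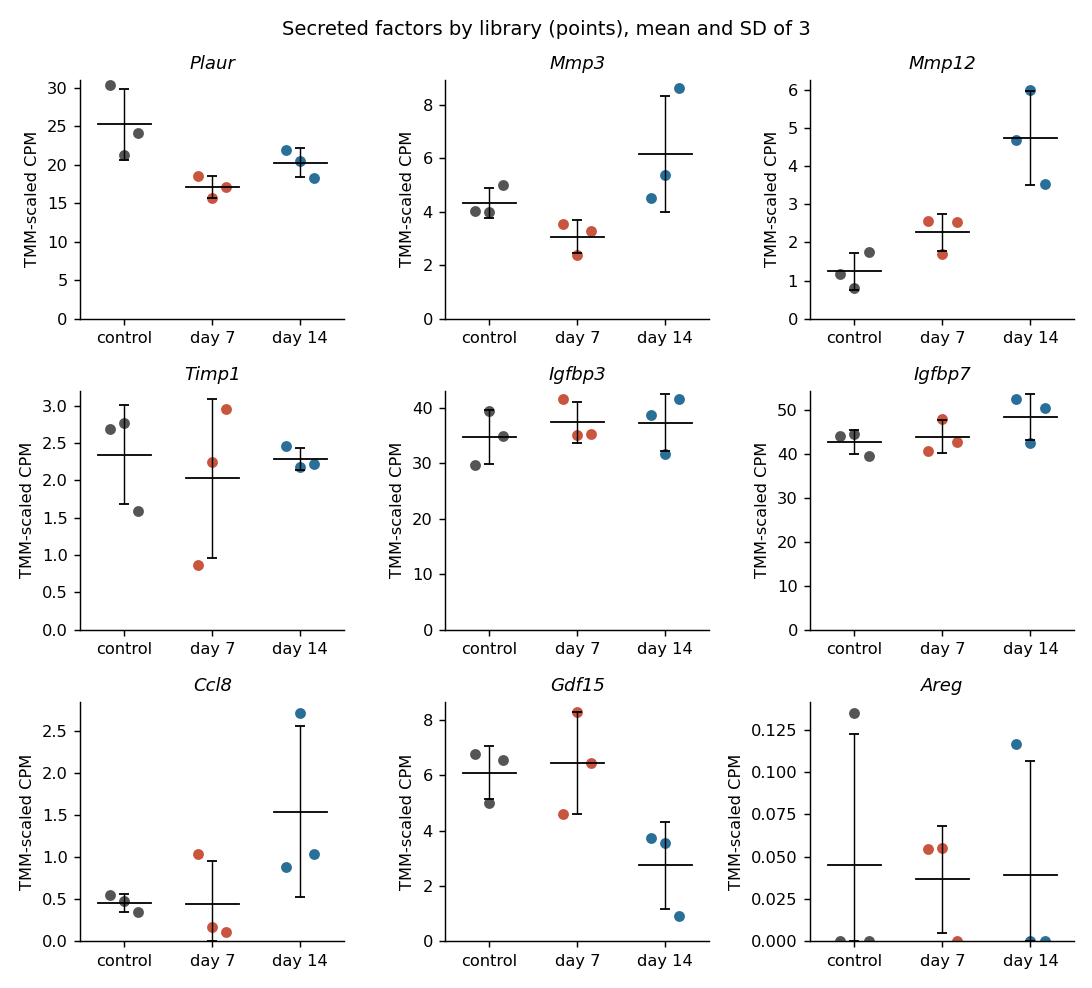
Level of each of the 9 factors in TMM-scaled CPM on the vertical axis (linear, from 0) in the 3 groups on the horizontal axis. Points are single libraries, the bar is the group mean and the whiskers are 1 SD, stopped at 0. Mmp12 is higher in every day 14 library than in any other, Plaur is lower in every day 7 library than in any control library, and Areg is near 0 throughout.

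**Figure D2:**
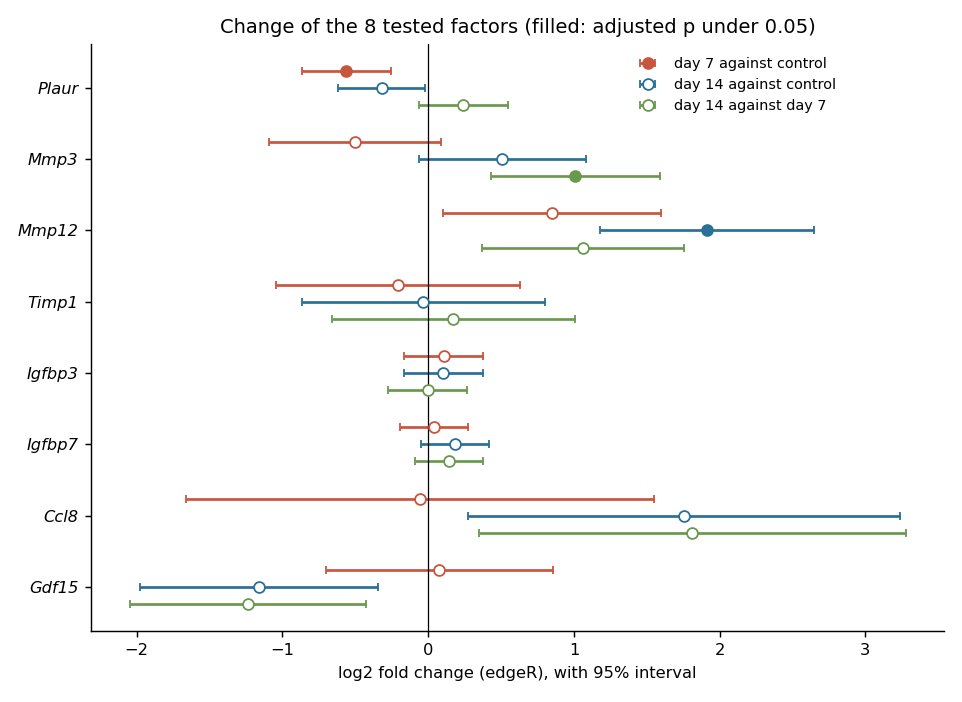
The log2 fold change of the 8 tested factors on the horizontal axis, with its 95% interval, for day 7 against control, day 14 against control and day 14 against day 7. Filled points passed an adjusted p of 0.05, which held for Plaur at day 7, Mmp12 at day 14 and Mmp3 between the irradiated groups.

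Plaur (ENSMUSG00000046223, chr7:24462484-24475968 on the plus strand of mm10) encodes the urokinase receptor, which holds the plasminogen activator urokinase at the cell surface and is shed from senescent cells. The control libraries had 30.3, 21.3 and 24.2 CPM, the day 7 libraries 18.5, 15.7 and 17.1 CPM, and the day 14 libraries 22.0, 20.5 and 18.3 CPM. Every day 7 library was below every control library, and day 14 overlapped both groups. Plaur fell by 0.56 (SE 0.15) at day 7, from 25.3 ± 4.60 CPM (SD, n = 3) to 17.1 ± 1.40 CPM (SD, n = 3), an adjusted p of 0.00678 in edgeR's quasi-likelihood test with Benjamini-Hochberg adjustment. Without control library 1 the difference was -0.41 and no longer passed (adjusted p = 0.0517), and without control library 3 it was -0.62 (adjusted p = 0.0060). After a correction for gene length and GC content the difference at day 7 was -0.40 (adjusted p = 0.040). At day 14 it was -0.32 against control (SE 0.14, adjusted p = 0.207). As everywhere in these bulk libraries, fewer cells of a type and less RNA per cell cannot be told apart.

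Urokinase itself (Plau) was at 18.3 ± 2.58 CPM (SD, n = 3) in control and 20.9 ± 1.89 CPM (SD, n = 3) at day 7, a log2 difference of 0.19 that was not called. Per kb of exons the receptor and its ligand stood at like levels over the 9 libraries, at 7.98 CPM per kb for Plaur and 8.59 CPM per kb for Plau. Of 11 other genes of plasminogen activation 8 were tested. At day 7 Lrp1, an endocytic receptor, rose by 0.33 and St14, a membrane serine protease, fell by 0.27. These are 25% called beside 30.6% of all tested genes. At day 14 against control edgeR and DESeq2 called none of the 8 and limma 1, with 1 at an unadjusted p under 0.05. Of all tested genes limma called 10.9% there. For day 14 against day 7 edgeR, DESeq2 and limma called none, with 0 at an unadjusted p under 0.05. Both day 7 calls were lost in several of the alternative settings, Lrp1 being called in 13 of 19 and St14 in 14 of 19. Among tested genes of at least 5 CPM, the patterns most like that of Plaur over the 9 libraries were those of Fam192a (Pearson r = 0.98), Fbl and Unc119b.

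Mmp3 (ENSMUSG00000043613, chr9:7445822-7455975, plus strand) and Mmp12 (ENSMUSG00000049723, chr9:7344381-7369499, plus strand) lie 76.3 kb apart in the matrix metalloprotease cluster of chromosome 9. Mmp3, stromelysin-1, cleaves proteoglycans and activates other metalloproteases and is made chiefly by fibroblasts. Mmp12, the macrophage elastase, degrades elastin. The exons of Mmp12 overlap those of Mmp1b on the opposite strand by 157 bases, and whether reads were assigned by strand is not given in the sources used here.

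Mmp3 had 4.02, 3.98 and 4.98 CPM in control libraries, 3.53, 2.36 and 3.28 CPM at day 7, and 4.50, 5.36 and 8.61 CPM at day 14. The day 7 libraries were the lowest 3 of the 9 and day 14 library 3 the highest, while day 14 overlapped control. Mmp3 was 2.01-fold higher at day 14 than at day 7 (95% interval 1.35 to 3.01), a log2 difference of 1.01 (SE 0.28, adjusted p = 0.0350). It was not called against control, with -0.50 (SE 0.28, adjusted p = 0.189) at day 7 and 0.51 (adjusted p = 0.297) at day 14. The call between the irradiated groups needed most of the libraries: without day 7 library 1, 2 or 3 the adjusted p was 0.0657, 0.161 and 0.0709, at differences of 1.13, 0.85 and 1.06. Without day 14 library 2 it was 0.0606 at 1.09, and without day 14 library 3, which stood apart in adipocyte markers, it was 0.176 at 0.69. Fibroblast markers summed to 413 to 454 CPM in control libraries, 457 to 569 CPM at day 7 and 462 to 625 CPM at day 14, and their part in the Mmp3 difference was not tested.

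Mmp12 had 1.16, 0.809 and 1.75 CPM in control libraries (19, 12 and 31 reads), 2.55, 1.70 and 2.53 CPM at day 7 (47, 31 and 47 reads), and 4.67, 6.0 and 3.52 CPM at day 14 (80, 113 and 65 reads). Every day 14 library was above every other library, whereas day 7 library 2 lay just below control library 3. At day 14 Mmp12 was 3.77-fold higher than control (95% interval 2.26 to 6.27), a log2 difference of 1.91 (SE 0.35, adjusted p = 0.0174). Its adjusted p was 0.0850 without control library 1 (difference 1.85), 0.0900 without control library 2 (1.67) and 0.0703 without day 14 library 2 (1.68), and it was 0.00269 without control library 3 (2.22). At day 7 the difference was 0.85 (SE 0.36, adjusted p = 0.0792). It was 1.17 without control library 3 (adjusted p = 0.0321) and 0.43 after the correction for gene length and GC content (adjusted p = 0.422). From day 7 to day 14 the difference was 1.06 (SE 0.33, adjusted p = 0.0599), and 7 of 19 alternative settings called it.

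The summed macrophage markers were highest in the day 14 libraries, as Mmp12 was. The 12 markers, all of them tested and none at 0, summed to 177 to 194 CPM in control libraries, 136 to 184 CPM at day 7 and 225 to 272 CPM at day 14. In day 14 against day 7, 5 of them were called higher (Cd68, C1qa, C1qb, C1qc and Fcgr1) and 1 lower (Mertk). Of all tested genes 3.72% were called higher and 2.87% lower there. Against control Mrc1 and Mertk were called higher at day 14, beside 1.13% of all tested genes. At day 7 C1qa, C1qb and C1qc were called lower and Mertk higher, beside 14.8% and 15.8% of all tested genes. Per 100 CPM of these markers Mmp12 stood at 0.649, 0.417 and 0.992 in control libraries, 1.39, 1.25 and 1.38 at day 7 and 1.78, 2.21 and 1.56 at day 14. The 3 groups did not overlap on this ratio. The same ratio of Ccl8 was 0.192 to 0.308 in control libraries and 0.333 to 0.996 at day 14, without overlap. Day 7, at 0.0588 to 0.562, overlapped both. The lowest of these values, in day 7 library 3, rests on 2 reads, under the floor of 3. Per 100 CPM of monocyte markers Ccl8 stood at 1.271 to 3.644 in control libraries and 3.049 to 6.641 at day 14, with overlap. On that ratio Mmp12 stood at 4.225 to 7.692 in control libraries, 11.24 to 14.69 at day 7 and 14.71 to 16.26 at day 14. The part of macrophages in the Mmp12 difference was not tested. The genes most like Mmp12 over the 9 libraries were Stard8 (Pearson r = 0.963), Chmp1b and Wwc1.

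Timp1 (ENSMUSG00000001131, chrX:20870166-20874735, plus strand) encodes a secreted inhibitor of metalloproteases. Its control libraries had 2.68, 2.77 and 1.58 CPM, its day 7 libraries 0.869, 2.25 and 2.96 CPM, and its day 14 libraries 2.45, 2.18 and 2.22 CPM. The groups overlapped and day 7 held both the lowest and the highest library. None of the 3 differences was called (adjusted p = 0.737, 0.972 and 0.859), and the 95% interval of the day 7 fold, 0.485 to 1.55, leaves room for a change of either sign.

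Per kb of exons Mmp3 stood at 2.40, 1.70 and 3.42 CPM per kb in control, day 7 and day 14, Timp1 at 2.64, 2.28 and 2.57 CPM per kb, and Mmp12 at 0.171, 0.312 and 0.654 CPM per kb. The order of the group means of Mmp3 and Timp1 thus differed, but in each group it also differed from library to library. It is therefore not read as a group difference. The inhibitors Timp2 (42.9, 43.7 and 44.9 CPM per kb) and Timp3 (7.06, 12.01 and 9.70 CPM per kb) stood above all 3 in each group. Of the 22 other genes of this list 15 were tested. At day 7 33.3% of these were called, beside 30.6% of all tested genes. At day 7 Reck, a membrane-anchored inhibitor of metalloproteases, rose by 1.43 (3.35, 3.10 and 5.20 CPM in control, 11.7, 9.78 and 10.2 CPM at day 7), and Timp3, the matrix-bound inhibitor, rose by 0.77 (0.47 after the length and GC correction). Mmp2, a gelatinase, rose by 0.42, but was called in only 7 of 19 alternative settings. Pericyte and smooth muscle markers summed to 266 to 302 CPM in control libraries and 363 to 456 CPM at day 7, with 3 of 8 called higher, and endothelial markers to 373 to 417 CPM and 454 to 538 CPM, with 2 of 10 called higher. Of 10 fibroblast markers 4 were called higher at day 7. The share of all tested genes called higher there was 15.8%. After the length and GC correction 1 pericyte and smooth muscle marker, 0 endothelial and 2 fibroblast markers were called higher, and 2 fibroblast markers lower. With that correction 21.7% of all tested genes were called in either direction. The part of these cell types in these differences was not tested. Cd63, a partner of Timp1 at the cell surface, fell by 0.70 and Bsg, which induces metalloproteases, fell by 0.50. Timp2 did not pass (0.03). From day 7 to day 14 Reck fell by 1.15 and Cd63 rose by 0.47. Between these times 20% of the 15 were called, beside 6.59% of all tested genes. Against control edgeR called 0 of the 15 at day 14, with 3 at an unadjusted p under 0.05. DESeq2 and limma called 1 each there, beside 6.79% and 10.9% of all tested genes. The calls of Reck and Cd63 in both comparisons and of Timp3 at day 7 held in all 19 settings. Bsg also rose between day 14 and day 7 (0.31), but was called in 7 of 19.

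**Figure D3:**
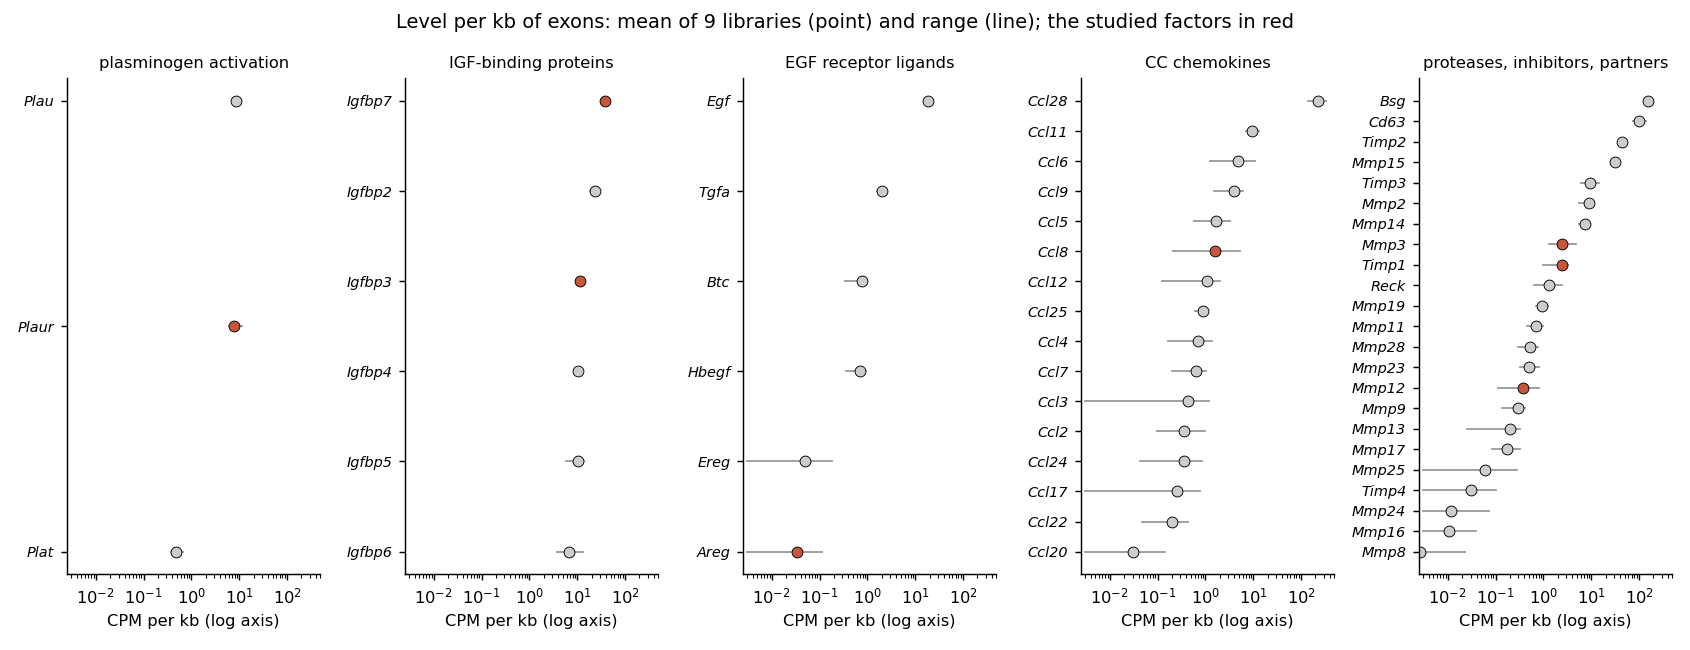
Level per kb of exons (CPM per kb, log axis) of the studied factors in red and of their family members in grey, as the mean of the 9 libraries with a line from the lowest to the highest library. Lines that reach the left edge stand for genes with libraries at or near 0, and genes at 0 in all libraries are left out. Igfbp7 leads its family, Plaur stands beside its ligand Plau, and the lines of Areg and Ereg reach the left edge.

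Igfbp3 (ENSMUSG00000020427, chr11:7206086-7213923, minus strand) encodes the main carrier of IGFs in blood, which also restrains growth in tissues. It had 29.7, 39.5 and 35.0 CPM in control libraries, 41.7, 35.2 and 35.3 CPM at day 7 and 38.7, 31.6 and 41.6 CPM at day 14. All 3 groups overlapped. The differences were 0.11 at day 7 (adjusted p = 0.573) and 0.10 at day 14 (adjusted p = 0.689), and the 95% interval of the day 7 fold was 0.892 to 1.30.

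Igfbp7 (ENSMUSG00000036256, chr5:77349240-77408041, minus strand) encodes a low-affinity IGF-binding protein of the vessel wall and matrix that is known as a secreted mediator of senescence. Its exons overlap those of Polr2b on the other strand by 85 bases. It had 44.1, 44.6 and 39.7 CPM in control libraries, 40.8, 48.1 and 42.8 CPM at day 7 and 52.5, 42.5 and 50.4 CPM at day 14, with overlap among all groups. The differences were 0.04 at day 7 (adjusted p = 0.826) and 0.18 at day 14 (adjusted p = 0.365). A correction for gene length and GC content gave 0.39 at both times and called both (adjusted p = 0.00536 at day 7 and 0.0483 at day 14). With the replicate block added the day 7 call remained (adjusted p = 0.00922) and the day 14 call did not (adjusted p = 0.0704). In these data the log2 difference of all tested genes rose with gene length, with a Spearman correlation across genes of 0.423 at day 7 and 0.336 at day 14, genes not being independent replicates.

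Per kb of exons Igfbp7 (37.3 CPM per kb) was the highest of 7 IGF-binding protein genes in each group, followed by Igfbp2 (23.8 CPM per kb). Igfbp3 (11.7 CPM per kb) stood close to Igfbp4 and Igfbp5, and Igfbp1 was listed at 0. Of 16 other genes of the IGF pathway 13 were tested. At day 7 and at day 14 against control 7.69% of these were called, beside 30.6% and 1.76% of all tested genes. Igf2r, which takes up and degrades IGF2, rose by 0.63 at day 7, from 124, 118 and 132 CPM to 178, 207 and 193 CPM, in all 19 alternative settings. Stc2, an inhibitor of the proteases that free IGFs, fell by 1.13 at day 14 (adjusted p = 0.0460), but its groups overlapped and 12 of 19 settings lost the call. Igf1 itself had 3.09 ± 0.79 CPM (SD, n = 3) in control and 4.90 ± 0.83 CPM (SD, n = 3) at day 14, and its receptor Igf1r 79.1 and 88.0 CPM, neither of them called. For day 14 against day 7 edgeR called 0 of the 13, with 1 at an unadjusted p under 0.05. DESeq2 and limma called 1 each there, beside 9.29% and 12.2% of all tested genes.

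Ccl8 (ENSMUSG00000009185, chr11:82115185-82116799, plus strand) encodes monocyte chemotactic protein 2, a ligand of Ccr8 in mouse. It was the lowest member that could be tested, with 9, 7 and 6 reads in control libraries, 19, 3 and 2 at day 7 and 15, 51 and 19 at day 14. In CPM these were 0.549, 0.472 and 0.339, then 1.03, 0.165 and 0.107, then 0.876, 2.71 and 1.03. Every day 14 library was above every control library, but day 7 library 1 lay among the day 14 libraries, and Ccl8 passed the filter on low counts only through day 14. Its difference at day 14 was 1.76 against control (SE 0.71, adjusted p = 0.162) and 1.81 against day 7 (adjusted p = 0.125), neither of them called. Since the group where it was high kept it in the test, these differences are given as a description. Without day 7 library 1 the latter was 3.44, against libraries of 3 and 2 reads. Summed per group, 22 reads in control (exact 95% Poisson interval 13.8 to 33.3) stood beside 24 at day 7 (15.4 to 35.7) and 85 at day 14 (67.9 to 105), intervals that cover counting error only.

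Ccr8, its receptor, was too low to test, with 1 read over control, 1 over day 7 and 3 over day 14. Of 26 other CC chemokines and receptors 15 were tested, and their median difference was 0.56 at day 14 against control, with a range of 0.14 to 0.59 over the alternative settings. There edgeR called 0, with 5 at an unadjusted p under 0.05, and 0 to 4 with 1 library left out. DESeq2 and limma called 2 each, beside 6.79% and 10.9% of all tested genes. Some low genes were kept in the test by the group where they were high. Ackr2 passed only through day 14 (10, 28 and 14 reads, at most 7 elsewhere), and Ccl24 was kept by control (13, 16 and 13 reads). The median of the list is therefore given as a description. At day 7 Ccl6 and Ccl9, chemokines of myeloid cells in mouse, fell by 1.46 and 1.34, which is 13.3% called beside 30.6% of all tested genes. Between day 14 and day 7, 4 of the 15 rose, which is 26.7% called beside 6.59% of all tested genes. These were Ccl6 by 2.02, Ccl5 by 1.72, Ccl9 by 1.53 and Ccr2, the receptor that marks recruited monocytes, by 1.29. Ccl6 had 8.42, 7.56 and 11.0 CPM in control libraries, 4.51, 2.20 and 3.12 CPM at day 7 and 9.93, 19.8 and 10.1 CPM at day 14, so every day 7 library was lower than every other. The calls of Ccl6 and Ccl9 held in all 19 settings, that of Ccr2 in 16 and that of Ccl5 in 14. At day 14 Ccr2 was 1.12 above control, which was not called (adjusted p = 0.0658).

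Monocyte markers summed to 15.1 to 26.7 CPM in control libraries, 11.6 to 22.7 CPM at day 7 and 22.1 to 40.8 CPM at day 14, with 6 of 7 of them tested. Neutrophil markers summed to at most 2.17 CPM in any library, with 2 of the 8 at 0. The part of monocytes and macrophages in the chemokine levels was not tested. Per kb Ccl8 stood at 0.887, 0.851 and 3.01 CPM per kb in control, day 7 and day 14, far under Ccl28 (193, 208 and 292 CPM per kb), the mucosal chemokine of secretory epithelium. The genes most like Ccl8 over the 9 libraries were Eif4ebp2 (Pearson r = 0.953), Plekho2 and Vsir.

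**Figure D4:**
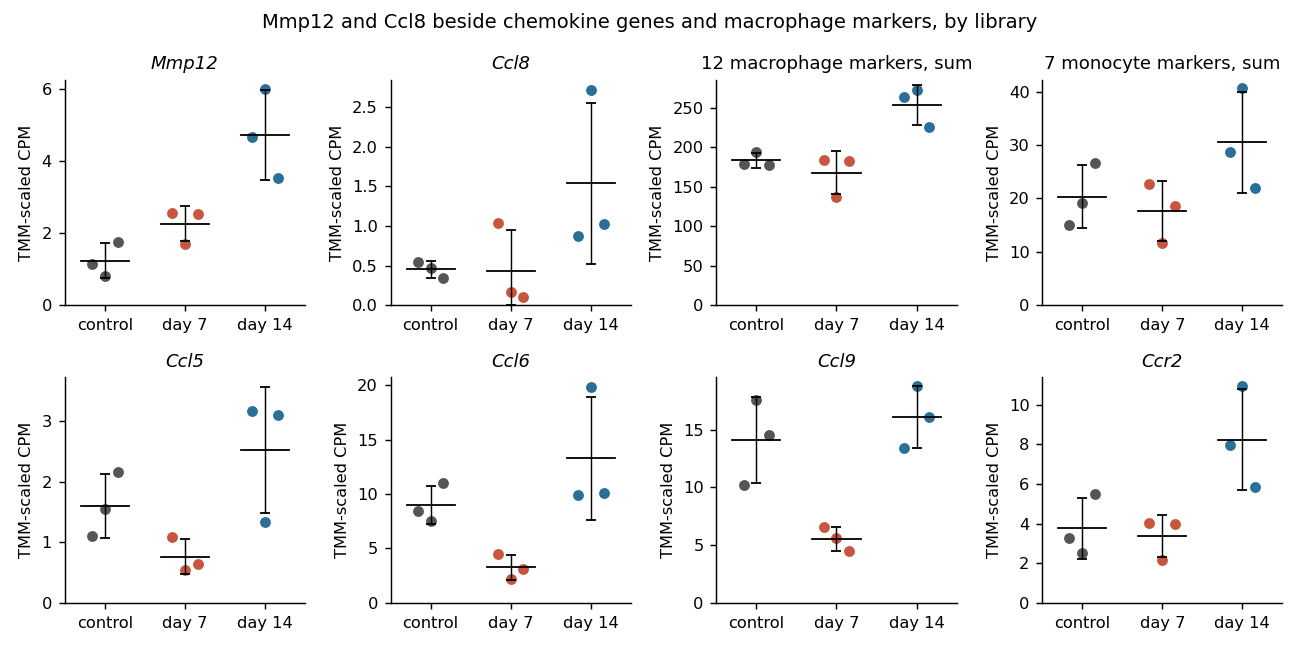
TMM-scaled CPM (vertical axes, linear, from 0) of Mmp12, Ccl8, the summed macrophage and monocyte markers, and the 4 CC chemokine and receptor genes called between day 14 and day 7, by group. Points are libraries, bars group means and whiskers 1 SD, stopped at 0. The macrophage marker sum is at 225 CPM or more in every day 14 library and at 194 CPM or less elsewhere, and Mmp12 is highest in the same libraries.

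Gdf15 (ENSMUSG00000038508, chr8:70629393-70632456, minus strand) encodes a stress-induced cytokine of the TGF-beta superfamily, made after p53 activation and in the integrated stress response, that acts on the brainstem receptor Gfral. It had 6.77, 4.99 and 6.56 CPM in control libraries (111, 74 and 116 reads), 4.62, 8.30 and 6.45 CPM at day 7 (85, 151 and 120 reads) and 3.74, 3.56 and 0.921 CPM at day 14 (64, 67 and 17 reads). Control and day 7 overlapped, and every day 14 library was below every other library, library 3 being the lowest. The difference at day 14 was -1.16 against control (SE 0.38, adjusted p = 0.104) and -1.24 against day 7 (SE 0.38, adjusted p = 0.0657), neither of them called by edgeR. DESeq2 called both (adjusted p = 0.0242 and 0.0110). At day 7 the difference was 0.08, with a 95% interval of the fold from 0.616 to 1.81.

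The 10 tested genes of the list of p53 and stress-response partners of Gdf15 had a median of -0.39 at day 7, -0.89 at day 14 and -0.38 between day 14 and day 7. Sesn2, a stress-induced inhibitor of mTORC1 signalling, fell by 1.55 at day 14 against control (adjusted p = 0.0335) and by 1.47 against day 7. It had 67.0, 32.9 and 61.0 CPM in control libraries, 51.2, 45.5 and 56.2 CPM at day 7 and 22.5, 17.7 and 14.8 CPM at day 14, and its day 14 call against control was kept in 11 of 19 settings. DESeq2 called 6 of the 10 lower at day 14 against control, beside 6.79% of all tested genes called in either direction. There edgeR called 1, beside 1.76%, with 9 of the 10 at an unadjusted p under 0.05. That last count takes either direction, and the share of all tested genes at this threshold was not computed. It is not read as a result about the list. Chac1 and Trib3, targets of the transcription factor Atf4, had day 14 differences of -2.66 (adjusted p = 0.0865) and -2.21 (adjusted p = 0.0732) that were not called. Chac1 was at 48.6, 37.4 and 13.3 CPM and Trib3 at 16.8, 15.1 and 6.07 CPM in the day 14 libraries, below all other libraries, and library 3 was again the lowest. At day 7 Atf4 itself fell by 0.57 and Egr1, an immediate early transcription factor, rose by 0.95, both in all 19 settings. These are 20% called beside 30.6% of all tested genes. Between day 14 and day 7 10% of the list were called, beside 6.59%. Gfral had 0 reads in all libraries. The genes most like Gdf15 were Nat2 (Pearson r = 0.967), Zfp282 and Herpud1.

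**Figure D5:**
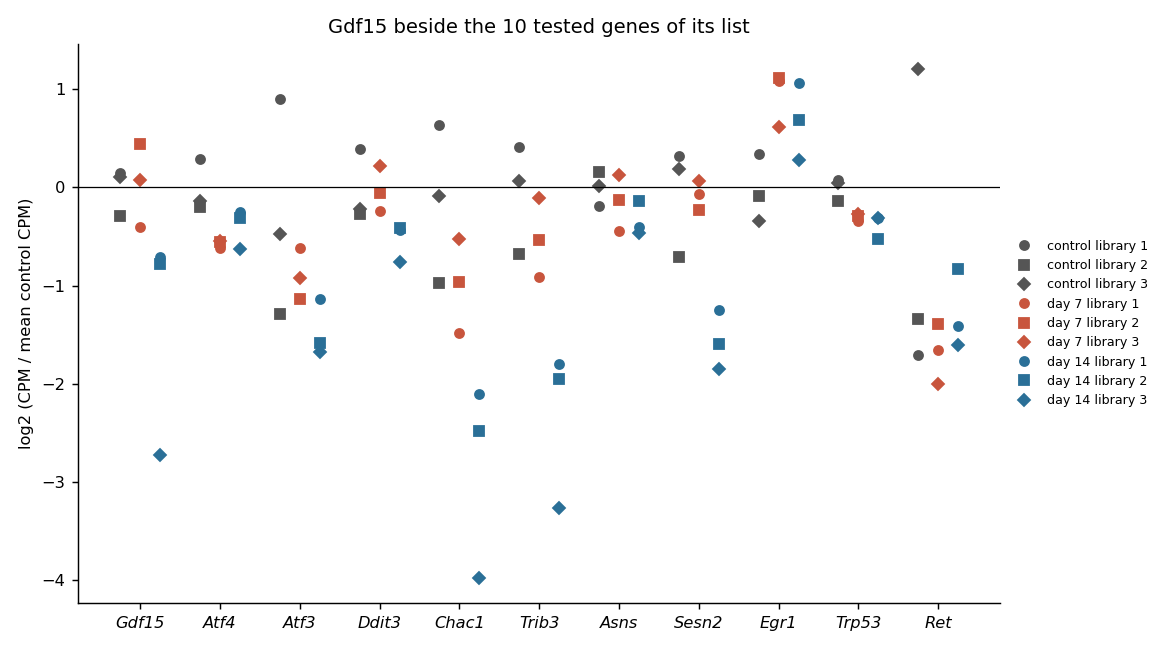
Level of Gdf15 and of the 10 tested genes of its list in each library, as log2 of CPM over the mean control CPM (vertical axis), with colours for groups and symbols for library numbers. Day 14 library 3 is the lowest of all for Gdf15, Chac1, Trib3 and Sesn2, and the 3 day 14 libraries of these genes lie under all control and day 7 libraries.

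Areg (ENSMUSG00000029378, chr5:91139599-91148432, plus strand) encodes amphiregulin, a ligand of the EGF receptor that is shed from the membrane by the protease Adam17. It had 0, 2 and 0 reads in control libraries, 1, 1 and 0 at day 7 and 2, 0 and 0 at day 14. With 2 reads in each group (exact 95% Poisson interval 0.242 to 7.22) it was under the floor of 3 reads, was removed by the filter and is too low to judge. Among the EGF receptor ligands Egf was the highest per kb, at 18.5 CPM per kb. Ereg, the related ligand epiregulin, had 2 reads over control, 20 over day 7 and 11 over day 14, 14 of the 20 in 1 library, and was not tested.

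Of 16 other genes of the EGF receptor pathway 14 were tested, and 4 rose at day 7, which is 28.6% called beside 30.6% of all tested genes. These were Egf by 0.39, the receptor Erbb3 by 0.53, the sheddase Adam10 by 0.70 and Lrig1, a negative regulator of the receptors, by 0.62. Erbb3 had 103, 133 and 127 CPM in control libraries and 168, 182 and 174 CPM at day 7, with no overlap. The calls of Erbb3, Adam10 and Lrig1 held in all 19 settings, and that of Egf was lost under both corrections for gene length and GC content. Egfr (0.23) and Adam17 (0.21) were not called at day 7. Lrig1 fell by 0.34 between day 14 and day 7, a call kept in 11 of 19. That is 7.14% called beside 6.59% of all tested genes. Against control edgeR called 0 of the 14 at day 14, with 5 at an unadjusted p under 0.05. DESeq2 and limma called 2 each there, beside 6.79% and 10.9% of all tested genes.

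Of 57 further secreted factors of the senescence-associated phenotype 42 were tested and 15 were too low. At day 7, 2 of them were higher and 5 lower, which is 16.7% called beside 30.6% of all tested genes. Nrg1, a ligand of Erbb3, rose by 1.03 and Mmp2 by 0.42, while Mif, a macrophage cytokine, fell by 0.69, Cxcl16 by 0.55, Tgfb1 by 0.41, the TNF receptor Tnfrsf1a by 0.32 and the lysosomal protease Ctsb by 0.25. After the length and GC correction Nrg1 was 0.59 and Tnfrsf1a -0.12, neither of them called. Of the 19 settings 17 called Nrg1, 15 Tnfrsf1a, 15 Tgfb1, 14 Ctsb, 13 Cxcl16 and 7 Mmp2. Against control edgeR, DESeq2 and limma each called 0 of the 42 at day 14, with 3 at an unadjusted p under 0.05. Between day 14 and day 7 Ctsb (0.46), Mif (0.53) and Ccl5 (1.72) rose, which is 7.14% called beside 6.59% of all tested genes. Mif had 97.8, 85.0 and 72.9 CPM in control libraries, 45.6, 56.8 and 55.9 CPM at day 7 and 77.1, 76.1 and 74.8 CPM at day 14, and its day 7 call held in all 19 settings, at -0.31 after the length and GC correction. Il6, a central cytokine of the phenotype, had 2 reads over control and 0 at both times after radiation.

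Of 16 genes of cell cycle arrest and senescence 14 were tested, and 6 were higher and 1 lower at day 7, which is 50% called beside 30.6% of all tested genes. Besides Cdkn1a, the retinoblastoma gene Rb1 rose by 1.44, the kinase inhibitor gene Cdkn2c by 0.89 and the lamin gene Lmnb1, whose loss is a mark of senescence, by 0.86, all 4 in all 19 settings. Cdkn1a, in all 19 settings, and Rb1 (0.83), in 11, were also higher at day 14 than in control. These are 14.3% called beside 1.76% of all tested genes. Between day 14 and day 7 Rb1, Lmnb1 and Hmgb2 fell, calls lost in 5 to 8 of the 19 settings. That is 21.4% called beside 6.59% of all tested genes.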

How the data were processed

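The deposited values are raw read counts per Ensembl gene, and nothing was normalized by the authors in these files. Per the submitters' processing notes the tools were STAR, featureCounts and DESeq2 and the build was mm10; their versions, the annotation and the strand setting are not stated in the labels. Here edgeR 4.0.16 (R 4.3.3) was fitted to all 9 libraries with 1 coefficient per group, after filterByExpr with group given had kept 15348 of 54532 genes and removed 39184. TMM factors, quasi-likelihood tests with Benjamini-Hochberg adjustment over all tested genes, and an adjusted p of 0.05 were used; the script was tested on simulated data. All groups share 1 estimate of the spread, with 6 residual degrees of freedom. A member that the filter removed was called too low to judge. Counts at an unadjusted p under 0.05 take either direction and have no share over all tested genes beside them. Such counts are read as no result about a list. Exon lengths and overlaps came from GENCODE M21.

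All members were named, with their direct partners, of which 1 is not reported here. From each list up to 4 called genes of smallest p per comparison were named, and for each member the 3 genes of highest Pearson r of log2 CPM (prior count 2) with a mean of at least 5 CPM. The remaining calls among the matrix genes and the other secreted factors, the called macrophage markers, Chac1, Trib3, Il6 and Igfbp1 were named after their values were seen. Members and lists were chosen with earlier results of these data known. Replicate numbers did not pair the libraries. Alternatives used DESeq2 1.42.0, limma 3.58.1 (voom) and mgcv 1.9.3 (length and GC correction), other scalings and filters, a replicate block, and each library left out.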

Additional observations from a re-analysis of the deposited data

Results flagged for a closer look

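In the reported fit the day 14 level of Mmp3 stood above its day 7 level by 1.01 on the log2 scale (SE 0.28, adjusted p = 0.0350 in edgeR). Against the same control libraries Mmp3 was at -0.50 at day 7 and 0.51 at day 14, neither of them called. The call between the 2 times held in 13 of 19 alternative settings. Single outlying libraries were not looked for by Dixon's criterion, since groups of 3 are not tested; control library 3 and day 14 library 3, which stood apart, are described with the results above.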

How the results depend on the processing

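Over the alternatives, 405 of 455 values of single genes kept their direction and their side of the threshold, 10 lost a call, 19 gained one and 21 changed sign. The number of members called, 1 in each comparison, was 2 at day 7 after correction for gene length and GC content, and 2 with that correction and a replicate block. At day 14 against control it was 2 with no filter on low counts, 2 with DESeq2, 2 with the length and GC correction and 0 at an adjusted p under 0.01. Between day 14 and day 7 it was 3 with no filter, 3 with DESeq2, 4 with limma-voom, 2 from only the 6 libraries compared, 3 with the length and GC correction and 0 at 0.01. With 1 library left out these counts ran from 0 to 2, from 0 to 1 and from 0 to 2. The other secreted factors called at day 7, 7 in the reported fit, were 2 at 0.01 and from 3 to 7 with 1 library left out; at day 14 against control 1 was called with no filter, and between day 14 and day 7 1 was called at 0.01. The cause of these shifts was not tested.

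Sign changes concerned differences that were not called, the largest in the reported fit being -0.21 for Timp1 at day 7. Not all of the changed values were near 0. Igfbp3 was -0.0124 at day 7 and 0.0553 between day 14 and day 7 with limma-voom. After the length and GC correction Timp1 was 0.0819 at day 7 and 0.127 at day 14, or 0.0398 and 0.125 with the replicate block added, and Ccl8 was 0.15 at day 7. With 1 library left out Ccl8 at day 7 ran from -1.68 to 0.40, Gdf15 from -0.14 to 0.27, Igfbp7 from -0.0346 to 0.0881 and Timp1 from -0.58 to 0.16. At day 14 against control Igfbp3 ran from -0.0138 to 0.19 and Timp1 from -0.29 to 0.0727, and between day 14 and day 7 from -0.0872 to 0.0919 and from -0.19 to 0.55.

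The replicate numbers only name the libraries, since same-numbered libraries deviated from their group means with correlations of -0.112 to 0.037. With the replicate block, the difference of Plaur at day 7 was -0.55 and that of Mmp12 at day 14 was 1.95, and the number of members called stayed at 1 at day 7 and at day 14 against control.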

Other observations

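Across the RefSeq promoter windows searched, the members with an AP-1 motif, Plaur, Mmp3 and Mmp12, were also the 3 members called by edgeR, in 3 different comparisons and in different directions. This was seen after the values were known, and no test of it was made. The match depends on the setting. DESeq2 also called Gdf15, and the length and GC correction called Igfbp7, and neither of these has the motif. In Mmp12 the motif was in the second window only, and 6.75% of all windows held it.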
